A study of Homo sapiens with 6 samples.

Results

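The genes of the cytosolic ribosomal proteins were taken from the counts table by symbol, as protein-coding rows named RPL or RPS with a number, RPLP0 to RPLP2 and RPSA, without the RPS6 kinases. This gave 84 of 22503 gene rows, 52 for the large and 32 for the small subunit. RNA was sequenced from CAL-27 cells, an established keratinocyte line of a tongue squamous carcinoma. DHA was given to 3 samples and the solvent DMSO to the other 3, for 48 h in each case. DHA was taken to be dihydroartemisinin, since the series concerns artemisinin derivatives, and no source used here states its dose. All 6 libraries come from 1 cell line without any genetic change named in the labels. Separate cultures are not named in the labels, so the p-values reflect only how far these 6 samples spread, and that spread may be technical.

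The cytosolic ribosome translates all nuclear-encoded mRNAs. Its large subunit forms peptide bonds and holds the exit tunnel, and its small subunit decodes the mRNA. Each protein is needed in about equal amounts, and the genes are highly expressed in dividing cells. Most of their mRNAs begin with a C and a run of pyrimidines, the terminal oligopyrimidine or TOP tract, through which the kinase mTORC1 and the protein LARP1 control their translation and stability. Several large-subunit and small-subunit proteins have duplicated paralogs, recognised by an L or L1 at the end of the symbol.

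The TOP tract is visible at the annotated transcription starts. RefSeq start-site windows (GRCh38.p14) were matched for 67 of the 84 genes. A C at the start followed by at least 4 pyrimidines, C or T, was read on the strand of the gene. It was present in 43 of the 67 windows (64.2%), in 26 of 42 for the large and 17 of 25 for the small subunit, against 4.67% of 18490 windows of the other protein-coding genes of the table. Each member entered with a single window, while the other genes entered with all their windows, so their share is per window and not per gene. The run of pyrimidines from the start had a median of 7 bases in the ribosomal protein genes and 0 in the other protein-coding genes. The windows below run from 10 bases before the start to 20 bases into the transcript, 5′ to 3′, with the pyrimidine run in capitals. They show the 6 members with the highest fold changes described further on, those of the 6 lowest that have a window, and 4 duplicated paralogs beside those parents that have a window. Of the lowest, RPL7A and RPL29 hold the tract at the annotated start and RPL4 and RPL17 do not. Of the paralogs, RPL22L1 holds it there and RPL26L1, RPS27L and RPL7L1 do not. The tract was scored only at the annotated start, and the RPL4 window holds a run of pyrimidines further in. The starts used in these cells were not measured, so a window scored without the tract may still belong to a TOP mRNA.
RPS21, chr20:62387093-62387122, plus strand: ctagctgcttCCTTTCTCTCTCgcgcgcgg
RPSA, chr3:39406710-39406739, plus strand: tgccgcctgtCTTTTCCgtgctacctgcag
RPLP2, chr11:809957-809986, plus strand: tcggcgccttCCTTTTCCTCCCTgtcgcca
RPL7A, chr9:133348208-133348237, plus strand: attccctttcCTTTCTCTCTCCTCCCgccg
RPL4, chr15:66504836-66504865, minus strand: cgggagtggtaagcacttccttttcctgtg
RPL17, chr18:49492446-49492475, minus strand: ttccctaagcagcctgaggtgagtgtttct
RPL29, chr3:51995876-51995905, minus strand: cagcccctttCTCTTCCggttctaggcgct
RPL22, chr1:6199576-6199605, minus strand: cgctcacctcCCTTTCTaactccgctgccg
RPL22L1, chr3:170870176-170870205, minus strand: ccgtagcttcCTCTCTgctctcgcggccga
RPL26, chr17:8383174-8383203, minus strand: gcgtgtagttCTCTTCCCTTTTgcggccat
RPL26L1, chr5:172958719-172958748, plus strand: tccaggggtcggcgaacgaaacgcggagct
RPS27, chr1:153990752-153990781, plus strand: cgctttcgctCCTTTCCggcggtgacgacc
RPS27L, chr15:63157458-63157487, minus strand: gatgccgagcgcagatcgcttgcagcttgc
RPL7L1, chr6:42879606-42879635, plus strand: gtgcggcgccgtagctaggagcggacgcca

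The libraries held 35983061 to 38120267 counts in DHA and 35980670 to 37403613 in DMSO. All 8 keratinocyte markers were detected, with summed levels of 3574 to 4263 CPM (counts relative to the TMM-scaled library total) in DHA and 4887 to 6432 CPM in DMSO. Their fitted log2 fold changes ran from -1.15 to 0.75, with 6 of 8 at an unadjusted p under 0.05 (20.3% of all genes tested). The keratin KRT6A alone was called, higher in DHA, with 150 ± 16.4 CPM in DHA and 89.4 ± 15.3 CPM in DMSO (SD, n = 3 each, adjusted p = 0.0402 by edgeR), and the call was lost when any single library other than DHA 3 was left out. Fibroblast markers summed to 9.15 to 13.2 CPM in DHA and 13.5 to 23.4 CPM in DMSO, leukocyte markers to 33.0 to 44.7 and 39.1 to 39.9 CPM, and endothelial markers to 15.4 to 18.6 and 16.4 to 26.5 CPM. The endothelial marker KDR and the leukocyte markers CD3E and PTPRC had no row in the counts. The highest leukocyte marker had a mean of 38.6 CPM, so that sum came mostly from a single gene. In such bulk RNA, fewer cells of a type and less RNA per cell cannot be told apart. Over all genes, 395 of 14649 tested passed edgeR's quasi-likelihood test at an adjusted p under 0.05, which is 2.70%.

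Ribosomal protein mRNAs took up a nearly constant share of the counts in the DMSO libraries and a widely varying one in the DHA libraries. They made up 6.48% of the counts in DHA 1, 8.16% in DHA 2 and 5.25% in DHA 3, against 5.52% in DMSO 1, 5.54% in DMSO 2 and 5.60% in DMSO 3. DHA 2 was the highest and DHA 3 the lowest of the 6 libraries, so the groups overlapped. The mean share was 6.63 ± 1.46% in DHA and 5.55 ± 0.0443% in DMSO (SD, n = 3 libraries each). Over all genes tested, DMSO 2 and DMSO 3 were by far the closest pair of libraries. Their counts differed by a mean chi-square per gene of 6.61, against 41 to 218 for the other pairs. The labels do not state whether DMSO 2 and DMSO 3 are separate cultures, so the spread in DMSO may be too small. The Wilson 95% interval of DHA 2 ran from 8.15% to 8.17% and that of DHA 3 from 5.24% to 5.26%, and such intervals cover counting error only.

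**Figure D1:**
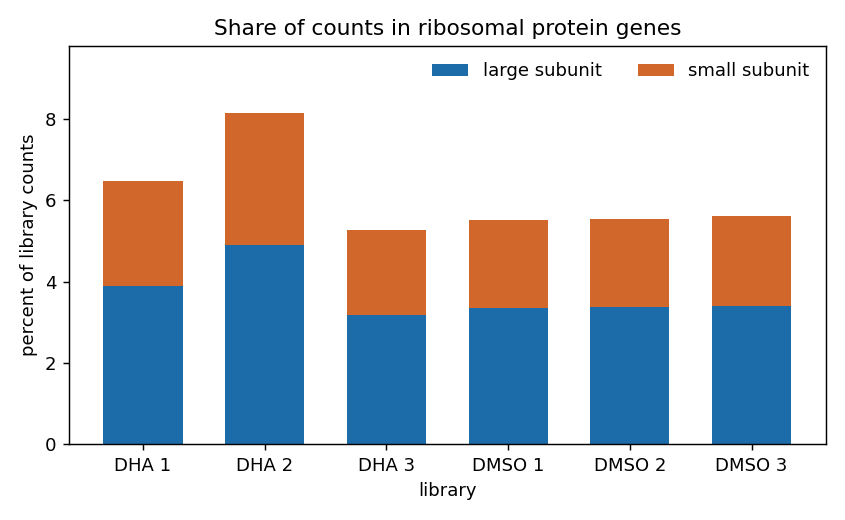
Percent of each library's counts that fell in large-subunit (lower part of the bar) and small-subunit (upper part) ribosomal protein genes. The 3 DMSO libraries lie between 5.52% and 5.60%, and the DHA libraries lie on either side of them, from 5.25% in DHA 3 to 8.16% in DHA 2.

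The large and small subunits moved together in every library. Large-subunit genes held 3.90%, 4.89% and 3.18% of the counts in DHA 1, DHA 2 and DHA 3, against 3.34%, 3.37% and 3.41% in DMSO 1, DMSO 2 and DMSO 3. Small-subunit genes held 2.58%, 3.27% and 2.08% in the DHA libraries, in the same order, against 2.18%, 2.17% and 2.20% in the DMSO libraries. Both subunits were thus highest in DHA 2 and lowest in DHA 3. The ratio of large-subunit to small-subunit counts was 1.514, 1.495 and 1.53 in DHA 1, DHA 2 and DHA 3, against 1.532, 1.549 and 1.551 in DMSO 1, DMSO 2 and DMSO 3. The DHA ratios were the lower ones, with DHA 3 and DMSO 1 nearly equal.

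The same order of libraries recurred in most genes. A filter on low counts kept 82 of the 84 genes, 50 of the large and 32 of the small subunit. RPL3L, a paralog known from striated muscle, had 1 to 6 counts in the DHA libraries and 1 to 11 in the DMSO libraries. RPL10L, a paralog known from the testis, had 0 counts in the DHA libraries, and in DMSO 1 count in DMSO 1 and 0 in the others. Both were left out by the filter. The deviation of each gene from its mean log2 CPM in DMSO had a median over the 82 genes of 0.25 in DHA 1, 0.65 in DHA 2 and -0.11 in DHA 3, and of 0.01, 0.00 and -0.01 in DMSO 1, DMSO 2 and DMSO 3. For the large subunit the medians in the DHA libraries were 0.24, 0.65 and -0.11, and for the small subunit 0.27, 0.66 and -0.10. All 82 genes stood above the DMSO mean in DHA 1 and in DHA 2, and 76 of 82 stood below it in DHA 3.

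**Figure D2:**
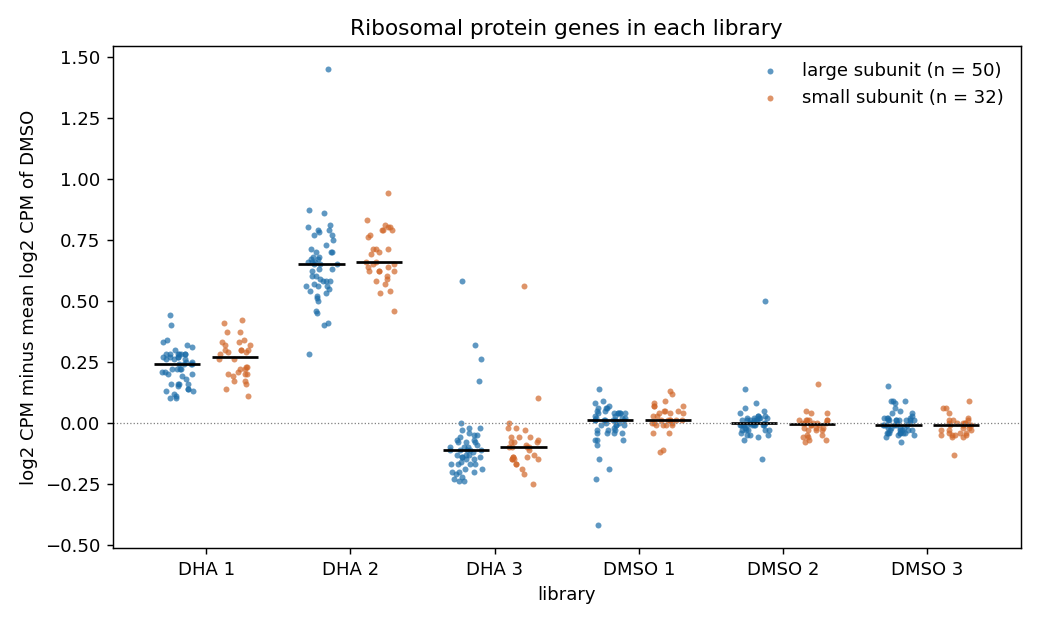
Deviation of each of the 82 tested ribosomal protein genes from its mean log2 CPM in DMSO, by library and subunit, with a bar at the median. The points of DHA 2 center on 0.65, those of DHA 1 on 0.25 and those of DHA 3 on -0.11, while the DMSO libraries stay near 0.

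The genes kept close to each other within a library. In DHA 2 the 10th and 90th percentiles of the deviation were 0.52 and 0.80 over the ribosomal protein genes, against -0.53 and 0.61 over 2087 other genes with a mean of at least 100 CPM. DHA 2 was the highest of the 6 libraries for 80 of 82 genes (97.6%, background over all genes tested 28.0%). DHA 1 and DHA 2 both exceeded every DMSO library while DHA 3 lay below every DMSO library for 67 of 82 genes (81.7%), against 3.31% of all genes tested. DHA 3 was below every DMSO library in 67 of 82 genes by itself (background 29.8%), and it was the lowest of all 6 libraries in the same number (background 18.6%). DHA 1 and DHA 2 were both above every DMSO library in 81 of 82 (background 25.1%). The full pattern held in 41 of 50 large-subunit and 26 of 32 small-subunit genes. The SD of log2 CPM was larger in DHA than in DMSO for 80 of 82 genes, against 56.0% of all genes tested. Its median over the ribosomal protein genes was 0.377 in DHA and 0.0398 in DMSO, and over all genes tested it was 0.231 in DHA and 0.186 in DMSO. Across the 82 genes the ratio of DHA 2 to DHA 3 had a median of 1.69, with quartiles of 1.60 and 1.80.

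The test of DHA against DMSO called none of them. By edgeR with p-values adjusted over all genes, 0 of 82 were higher and 0 lower, against a background of 1.10% of all genes called higher and 1.60% called lower. The DESeq2 Wald test and limma-voom also called 0. An unadjusted p under 0.05 was reached by 4 of 82, namely RPL22L1, RPS27L, RPL26L1 and RPSA, against 20.3% of all genes tested, and the lowest adjusted p was 0.157. The fitted log2 fold changes were positive in 82 of 82 genes, against 50.3% of all genes tested, and ran from 0.13 to 0.93, with a median of 0.30 beside a median of 0.00 over all genes tested. The median was 0.29 for the large and 0.33 for the small subunit, with a median SE of 0.178 and 0.186. Leaving out DHA 2 changed this size, and without it the median over the members was 0.08 and 74 of 82 were positive. Without DHA 3 the median was 0.47, 76 genes had an unadjusted p under 0.05 against 29.4% of all genes tested, and RPS21 and RPSA were called higher (adjusted p = 0.0428 and 0.0484 by edgeR), beside 2.28% of all genes.

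**Figure D3:**
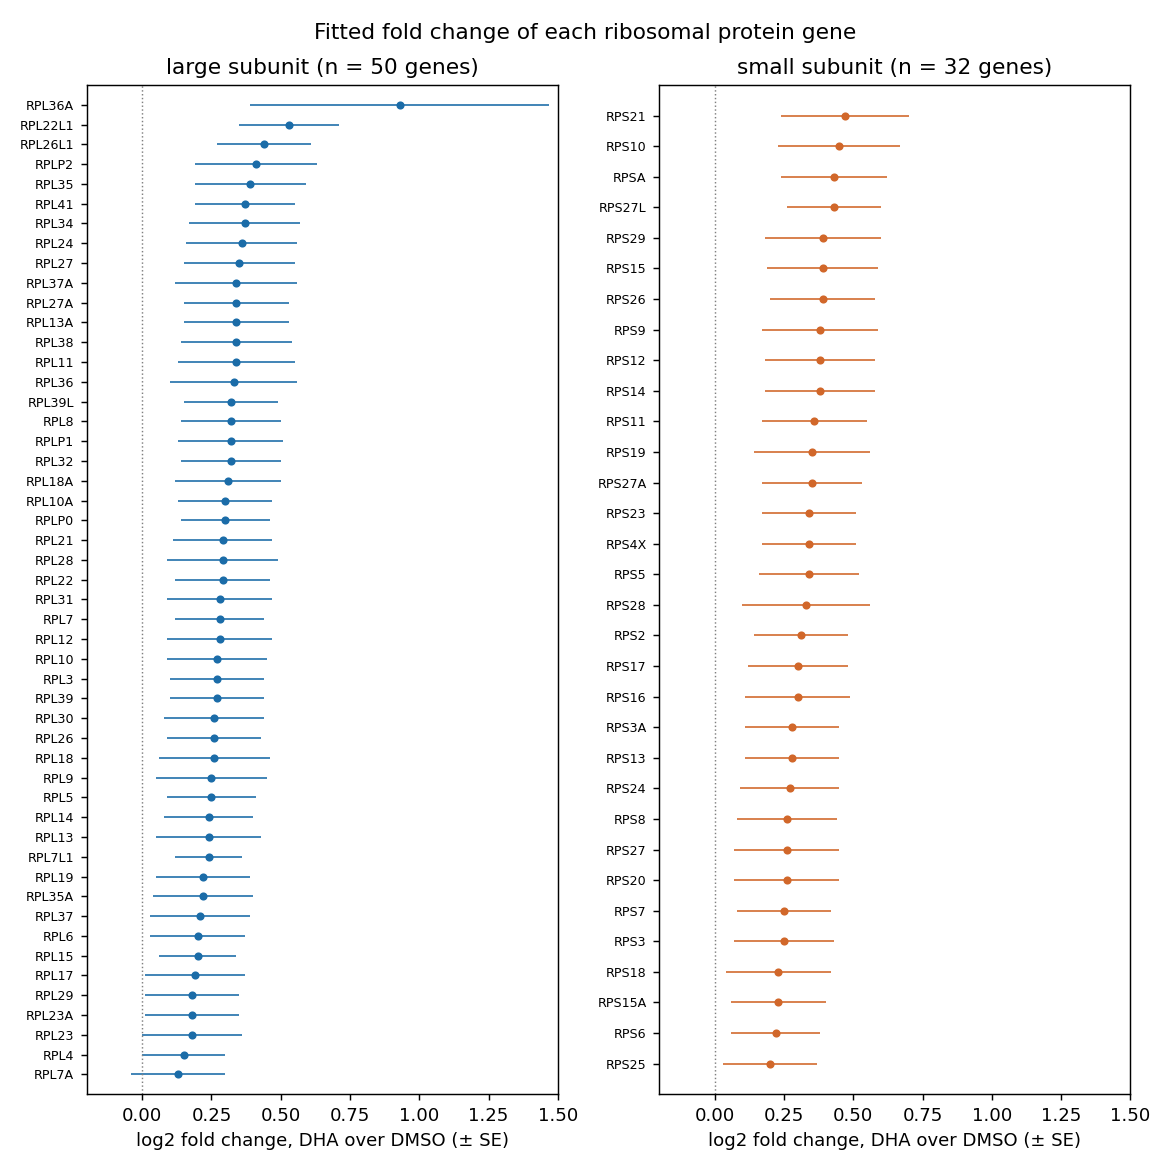
Fitted log2 fold change, DHA over DMSO, of each tested ribosomal protein gene with its SE, ordered within each subunit. Every point lies to the right of 0, from 0.13 for RPL7A to 0.93 for RPL36A, and none passed the adjusted threshold.

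Transcript length and base composition moved with the same libraries, and their part in the result was not tested beyond the correction given below. Ribosomal protein transcripts are short, with a median length of 757 bases against 2434 bases for the other genes tested, and a GC content with a median of 49.7% against 49.8%. The other genes were split into 4 equal bins by length and, separately, by GC content. The shortest bin had a median deviation of 0.16 in DHA 1, 0.35 in DHA 2 and -0.01 in DHA 3, against -0.07, 0.03 and 0.04 in the DMSO libraries. The longest bin had -0.15, -0.35 and 0.08 in the DHA libraries, against 0.09, -0.04 and -0.05 in the DMSO libraries. Short transcripts were thus high and long transcripts low in DHA 2. By GC content, the lowest bin stood at -0.30 and the highest at 0.17 in DHA 2, and at 0.15 and -0.10 in DHA 3. Of 65 genes that are no members, lie within the interquartile ranges of the members in length and GC and have at least 100 CPM, the median deviation was 0.25 in DHA 1, 0.49 in DHA 2 and -0.01 in DHA 3.

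After each library's trend with GC content and length was taken out, part of the pattern remained. The median over the ribosomal protein genes became 0.10 in DHA 1, 0.37 in DHA 2 and -0.06 in DHA 3, and 0.08, -0.01 and -0.07 in DMSO 1, DMSO 2 and DMSO 3. DHA 1 and DHA 3 then lay close to the DMSO libraries and DHA 2 stayed above them. The height of DHA 2 was not confined to the members. After the same correction its median was 0.36 for mitochondrial ribosomal protein genes, 0.45 for ribosome assembly factors and 0.35 for chaperones of ribosomal proteins. It was 0.16 for the 65 genes described above and 0.05 over all genes tested. DHA 2 remained above every DMSO library in 80 of 82 genes (background 39.8%), DHA 1 did so in 40 (background 33.5%), and DHA 3 lay below every DMSO library in 37 (background 27.5%). In the fit with this correction the median log2 fold change was 0.15, beside 0.04 over all genes, and 0 of 82 were called. Among the 80 members with at least 10 CPM, the log2 difference between DHA 2 and DHA 3 was related to GC content with a Spearman rho of 0.45 and to length with a rho of -0.45, as a description over genes of the same libraries.

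**Figure D4:**
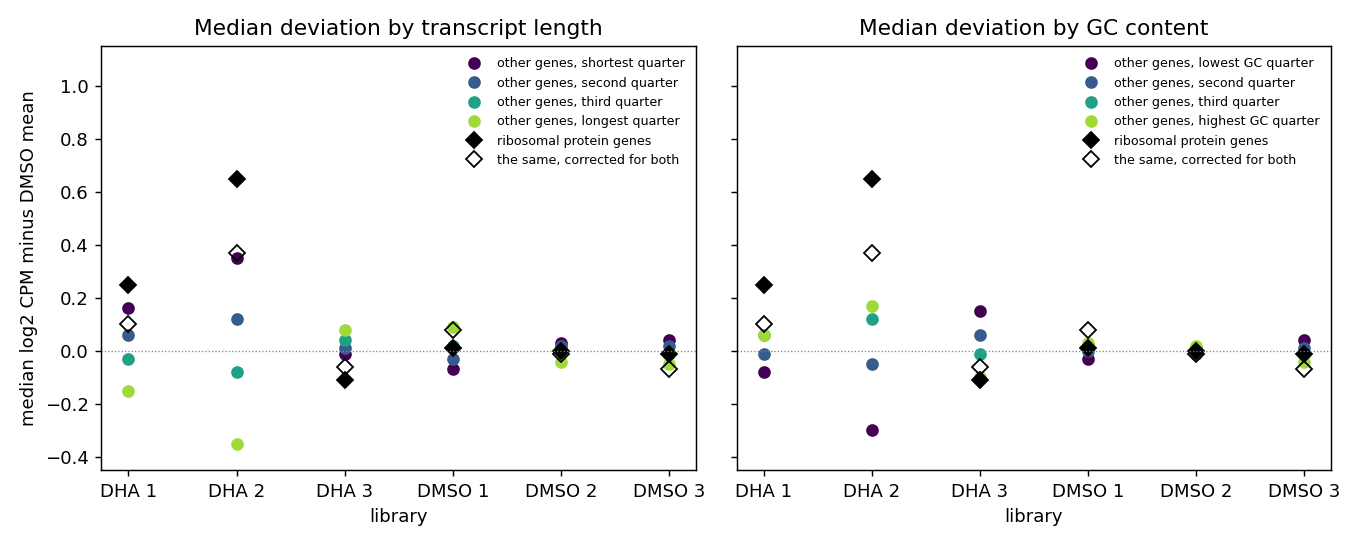
Median deviation from the DMSO mean of log2 CPM in each library, for 4 equal bins of the other genes by transcript length (left) and GC content (right), and for the ribosomal protein genes before (filled diamonds) and after (open diamonds) correction for both. In DHA 2 the shortest bin lies at 0.35 and the longest at -0.35, and the ribosomal protein genes lie at 0.65, and at 0.37 after correction.

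Within the large subunit, RPL5 and RPL11 bind the 5S ribosomal RNA and can restrain MDM2, the ubiquitin ligase of p53. RPL11 stood at 1100, 1567 and 832 CPM in DHA 1, DHA 2 and DHA 3, against 946, 913 and 900 CPM in DMSO 1, DMSO 2 and DMSO 3 (log2 fold change 0.34 ± 0.21 SE, adjusted p = 0.362 by edgeR). RPL5 stood at 935, 1202 and 794 CPM in the DHA libraries and at 818, 819 and 824 CPM in the DMSO libraries. In both genes DHA 3 was lowest and DHA 2 highest, so the groups overlapped. The stalk proteins RPLP0, RPLP1, RPLP2 and RPL12 recruit the translation factors to the large subunit, and their median deviations were 0.27, 0.68 and -0.12 in DHA 1, DHA 2 and DHA 3. RPLP2 had the highest fold change of the 4, with 745, 1085 and 538 CPM in the DHA libraries and 599, 585 and 605 CPM in the DMSO libraries (log2 fold change 0.41 ± 0.22 SE, adjusted p = 0.317 by edgeR). DHA 1 and DHA 2 were above and DHA 3 below all DMSO libraries. RPLP0 was at 2216, 2798 and 1831 CPM in the DHA libraries and 1900, 1845 and 1810 CPM in the DMSO libraries. Here DHA 3 lay among the DMSO libraries rather than below them.

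The 10 genes for proteins near the peptidyl transferase centre and in the core of the large subunit had log2 fold changes from 0.13 to 0.34, with a median of 0.27. RPL3, which lies close to the catalytic centre, was at 1449, 1842 and 1154 CPM in DHA 1, DHA 2 and DHA 3, against 1262, 1232 and 1193 CPM in the DMSO libraries. RPL4, whose long loop lines the exit tunnel, was at 1805, 2217 and 1587 CPM in the DHA libraries and 1693, 1673 and 1677 CPM in the DMSO libraries (log2 fold change 0.15 ± 0.15 SE, adjusted p = 0.568 by edgeR). RPL4 had a DHA 2 to DHA 3 ratio of 1.40, at the low end of the genes. RPL7A averaged 1363 ± 327 CPM in DHA and 1243 ± 12.8 CPM in DMSO (SD, n = 3 each), the lowest fold change of all members (log2 0.13 ± 0.17 SE, adjusted p = 0.682 by edgeR). Its fitted sign turned to -0.06 without DHA 2 and also to -0.06 with the correction for GC content and length. RPL10, RPL23, RPL23A and RPL29 averaged 1209 ± 292, 750 ± 191, 959 ± 233 and 404 ± 96.1 CPM in DHA, against 1004 ± 57.3, 664 ± 12.0, 850 ± 12.6 and 356 ± 7.24 CPM in DMSO (SD, n = 3 each). Each differed between the groups by less than the spread of the DHA libraries. At the mouth of the exit tunnel, RPL35 stood at 1120, 1574 and 875 CPM in DHA 1, DHA 2 and DHA 3, against 850, 928 and 941 CPM in the DMSO libraries. DMSO 1 was the lowest library for RPL35, unlike for most members.

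Most small-subunit genes followed the same order. RPS3, at the mRNA entry channel, was the most abundant member per length, with 2105 to 3463 CPM in DHA and 2229 to 2351 CPM in DMSO. RPS2, its neighbour on the subunit, was at 2474, 3220 and 1988 CPM in DHA 1, DHA 2 and DHA 3, against 2059, 2083 and 2068 CPM in DMSO 1, DMSO 2 and DMSO 3. RPS6, the phosphorylation target of the S6 kinases, was at 721, 970 and 641 CPM in the DHA libraries and 669, 641 and 696 CPM in the DMSO libraries (log2 fold change 0.22 ± 0.16 SE, adjusted p = 0.462 by edgeR). For RPS2 and RPS6 the DHA libraries lay on both sides of, or level with, the DMSO libraries. RPSA, a protein of the mRNA exit region also known as the laminin receptor, was at 694, 940 and 528 CPM in the DHA libraries and 522, 540 and 544 CPM in the DMSO libraries (log2 fold change 0.43 ± 0.19 SE, adjusted p = 0.246 by edgeR). RPS21 had the highest ratio of DHA 2 to DHA 3, 2.13, with 404, 579 and 272 CPM in the DHA libraries and 317, 294 and 293 CPM in the DMSO libraries. The fitted difference was 0.47 ± 0.23 on the log2 scale (SE), with an adjusted p of 0.279 in edgeR. RPS19, the gene most often mutated in Diamond-Blackfan anaemia, a disorder of ribosomal proteins, was at 871, 1215 and 643 CPM in DHA and 747, 701 and 686 CPM in DMSO. The 21 genes listed for that disorder had median deviations of 0.22, 0.65 and -0.14 in DHA 1, DHA 2 and DHA 3, close to those of all members, and 0 were called.

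The role groups differed little from each other. Median log2 fold changes lay between 0.27 for the core and exit tunnel genes of the large subunit and for the body of the small subunit, and 0.34 for the decoding centre and head of the small subunit, with 0 calls in each. Members with the TOP tract at the annotated start had median deviations of 0.24, 0.67 and -0.11 in DHA 1, DHA 2 and DHA 3 (43 genes). Those without it at that position had 0.26, 0.66 and -0.09 (23 genes). Some of these 23, such as RPL4, hold a run of pyrimidines further into the window. They cannot be read as a set of genes without a TOP tract. The difference between these sets was not tested.

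Some duplicated paralogs did not follow the order of the other members in DHA 3, where RPL22L1, RPL26L1, RPL7L1 and RPS27L lay above the DMSO mean. So did RPL36A and RPS10, at 0.58 and 0.56, which lack the paralog mark and have the lowest levels per length of the members tested. The difference between paralogs and the other members was not tested. The DHA libraries all exceeded all DMSO libraries in 5 of 82 members, RPL22L1, RPL26L1, RPL7L1, RPS27L and RPS10, against 14.3% of all genes tested, and 0 members showed the opposite, against 13.5%. RPL22L1, which in mice is repressed by its parent Rpl22, was at 35.0, 48.5 and 31.7 CPM in DHA 1, DHA 2 and DHA 3, against 23.3, 29.3 and 27.3 CPM in DMSO 1, DMSO 2 and DMSO 3. The fitted difference was 0.53 ± 0.18 on the log2 scale (SE), with an adjusted p of 0.157 by edgeR and 0.0892 by the DESeq2 Wald test. The parent RPL22 was at 486, 630 and 386 CPM in the DHA libraries and 397, 393 and 436 CPM in the DMSO libraries, with overlap. As counts relative to the parent, RPL22L1 made up 7.20%, 7.70% and 8.21% in the DHA libraries and 5.86%, 7.46% and 6.27% in the DMSO libraries, which overlapped at DMSO 2.

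RPL26L1, a close copy of RPL26, was at 38.5, 45.4 and 31.8 CPM in DHA 1, DHA 2 and DHA 3, against 24.1, 29.9 and 31.3 CPM in DMSO 1, DMSO 2 and DMSO 3 (log2 fold change 0.44 ± 0.17 SE, adjusted p = 0.197 by edgeR). DHA 3 and DMSO 3 were nearly equal. RPS27L, known as a target of p53, was at 46.0, 56.5 and 37.1 CPM in the DHA libraries and 34.4, 32.8 and 36.7 CPM in the DMSO libraries (log2 fold change 0.43 ± 0.17 SE, adjusted p = 0.196 by edgeR). Its parent RPS27 was at 397, 541 and 303 CPM in the DHA libraries and 367, 337 and 332 CPM in the DMSO libraries, with DHA 3 the lowest. RPL7L1, a relative of RPL7 found in the nucleolus, was at 206, 226 and 234 CPM in the DHA libraries and 169, 195 and 199 CPM in the DMSO libraries (adjusted p = 0.296 by edgeR). DHA 3 was the highest library for RPL7L1, the reverse of its place for RPL7, which had 922, 1189 and 769 CPM in the DHA libraries and 794, 792 and 781 CPM in the DMSO libraries. The transcript length is 4122.5 bases for RPL7L1 and 1204.5 for RPL7. After the correction for GC content and length, RPL7L1 deviated by 0.26, 0.57 and 0.26 in DHA 1, DHA 2 and DHA 3, and RPL7 by 0.14, 0.44 and -0.12. DHA 2 was then the highest DHA library for both. RPL39L, a paralog of RPL39 known from male germ cells, lay closer to its parent, with 69.7, 90.3 and 56.4 CPM in the DHA libraries and 55.9, 58.3 and 58.9 CPM in the DMSO libraries. DMSO 1 was the lowest library for RPL22L1, RPL26L1, RPL7L1 and RPL39L, and reads shared with parents or processed pseudogenes make all these counts uncertain.

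**Figure D5:**
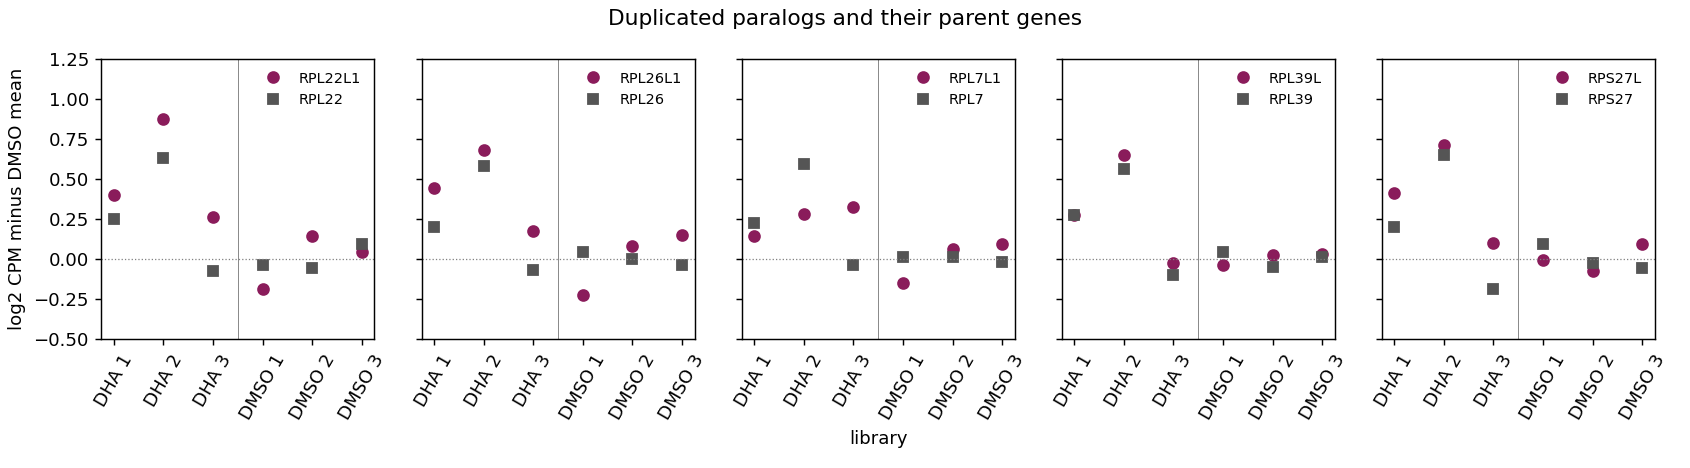
Deviation from the DMSO mean of log2 CPM for 5 duplicated paralogs (circles) and their parent genes (squares) in each library. In DHA 3 the parents lie below 0 and RPL22L1, RPL26L1, RPL7L1 and RPS27L lie above it, at 0.26, 0.17, 0.32 and 0.10.

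Levels per length spanned a wide range in the DMSO libraries. The median was 828 CPM per kb of transcript, with quartiles of 566 and 1165, and it was 828 for the large and 819 for the small subunit. The highest were RPS3 with 2537 ± 70.6, RPLP1 with 2296 ± 50.6 and RPS2 with 2168 ± 12.6 CPM per kb (SD, n = 3). RPL39L had 77.0 ± 2.10 CPM per kb, RPL7L1 45.4 ± 3.97, RPS27L 42.9 ± 2.45 and RPL26L1 40.1 ± 5.41, and the last 3 did not differ beyond their spread. RPL17, RPS10 and RPL36A were lower than the other core members, with 22.9 ± 2.22, 4.13 ± 0.428 and 0.300 ± 0.125 CPM per kb. RefSeq places each of these 3 inside or across a readthrough gene with a neighbour, RPL17-C18orf32, RPS10-NUDT3 and RPL36A-HNRNPH2. RPL36A had 9, 23 and 12 counts in DHA 1, DHA 2 and DHA 3, against 5, 11 and 7 in DMSO 1, DMSO 2 and DMSO 3, so its difference of 0.93 ± 0.54 on the log2 scale (SE), with an adjusted p of 0.347 in edgeR, rested on few reads. Its paralog RPL36AL, which lies outside the symbol rule, had 124, 161 and 95.3 CPM in the DHA libraries and 98.3, 104 and 104 CPM in the DMSO libraries.

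FAU, RACK1 and RPL36AL, ribosome components outside the symbol rule, were highest in DHA 2 and lowest in DHA 3, and the TOP mRNAs named below were not all ordered so. FAU, which encodes RPS30 fused to a ubiquitin-like protein, was at 538, 762 and 399 CPM in DHA 1, DHA 2 and DHA 3, against 412, 433 and 442 CPM in the DMSO libraries (adjusted p = 0.300 by edgeR). For FAU, DHA 3 was again lowest. RACK1, a scaffold on the small subunit, was at 1663, 2139 and 1408 CPM in the DHA libraries and 1444, 1456 and 1425 CPM in the DMSO libraries. Of 31 TOP mRNAs outside the members edgeR, limma-voom and the DESeq2 Wald test called 0, beside 2.70% of all genes tested called by edgeR. In edgeR 1 of the 31 had an unadjusted p under 0.05, against 20.3% of all genes tested. The median deviations of the 31 were 0.12, 0.39 and -0.05 in the DHA libraries. The elongation factor EEF1A1 was at 9312, 10129 and 8565 CPM in DHA 1, DHA 2 and DHA 3, against 9354, 8229 and 8173 CPM in DMSO 1, DMSO 2 and DMSO 3. TPT1, a TOP mRNA of a growth-related protein, was at 2497, 3100 and 2099 CPM in the DHA libraries and 2461, 2029 and 2000 CPM in the DMSO libraries. In both, DHA 2 was highest, but DHA 3 lay above DMSO 2 and DMSO 3. EEF2, which moves the ribosome along the mRNA, was at 2959, 3163 and 2673 CPM in the DHA libraries and 3178, 2708 and 2524 CPM in the DMSO libraries, with DMSO 1 the highest and DMSO 3 the lowest.

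Mitochondrial ribosomal protein genes, which serve another ribosome, had 77 tested genes, of which edgeR and limma-voom called 0 and the DESeq2 Wald test called 2 higher (3.09% of all genes tested by it). In edgeR 19 of 77 reached an unadjusted p under 0.05, against 20.3% of all genes tested. They had median deviations of 0.24, 0.62 and 0.08 in DHA 1, DHA 2 and DHA 3. They differed from the cytosolic set in DMSO, where DMSO 1 stood at -0.21, DMSO 2 at 0.09 and DMSO 3 at 0.13. Ribosome assembly factors had medians of 0.16, 0.37 and 0.30 in the DHA libraries and -0.36, 0.17 and 0.20 in the DMSO libraries. DMSO 1, which lies at 0.01 for the cytosolic ribosomal proteins, was thus low for the factors that assemble them. Of 56 assembly factors 1 rose and 0 fell, beside 1.10% of all genes tested called higher and 1.60% called lower. In edgeR 10 of the 56 had an unadjusted p under 0.05. The factor called was EIF6, which keeps the subunits apart until the large one is mature. It had 280, 376 and 239 CPM in the DHA libraries and 142, 182 and 182 CPM in the DMSO libraries (log2 fold change 0.82 ± 0.18 SE, adjusted p = 0.0472 by edgeR). The call was lost with any single library other than DHA 3 left out, and under upper-quartile scaling, unscaled totals and limma-voom. Dedicated chaperones of ribosomal proteins and the RNA polymerase I machinery gave 0 calls among 14 and 20, with 2 and 4 at an unadjusted p under 0.05, against 20.3% of all genes tested. By the DESeq2 Wald test and by limma-voom they also gave 0. Translation initiation factors gave 1 rise, EIF6 again, and 0 falls among 38, with 6 at an unadjusted p under 0.05 in edgeR.

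Regulators of TOP mRNAs and mTORC1 held 1 rise and 0 falls among 28 tested, beside 1.10% and 1.60% of all genes tested. In edgeR 10 of the 28 had an unadjusted p under 0.05, against 20.3% of all genes tested. The gene called was SESN2, an inhibitor of mTORC1. It had 95.2, 91.0 and 102 CPM in the DHA libraries and 24.0, 35.1 and 31.7 CPM in the DMSO libraries (log2 fold change 1.67 ± 0.16 SE, adjusted p = 0.00284 by edgeR). SESN2 did not share the order of the ribosomal protein genes, since DHA 2 was the lowest DHA library. LARP1 was at 268, 259 and 341 CPM in the DHA libraries and 235, 273 and 263 CPM in the DMSO libraries, and MYC, which drives ribosome synthesis, at 198, 227 and 227 CPM against 109, 193 and 161 CPM (adjusted p = 0.508 and 0.194 by edgeR). Neither passed. In the list of ribosome quality control, 1 of 24 rose, and 2 had an unadjusted p under 0.05 in edgeR. The gene called was the collision sensor ZNF598, with 118, 128 and 128 CPM in the DHA libraries and 68.6, 91.7 and 82.8 CPM in the DMSO libraries (adjusted p = 0.0496 by edgeR). This call was lost in each fit that left out a library and under upper-quartile scaling and unscaled totals. In the list of p53 targets 9 of 22 had an unadjusted p under 0.05 in edgeR, against 20.3% of all genes tested. Of the 22, 2 rose and 0 fell. They were BBC3, which encodes the cell death protein PUMA, and the stress gene GADD45A, with 27.4 ± 4.22 and 62.6 ± 3.42 CPM in DHA against 15.5 ± 2.19 and 38.0 ± 7.12 CPM in DMSO (SD, n = 3 each, adjusted p = 0.0380 and 0.0472 by edgeR). Each of these calls was lost when any single library other than DHA 3 was left out, and that of GADD45A also under upper-quartile scaling and unscaled totals. MDM2 and the cell cycle inhibitor CDKN1A averaged 74.5 ± 15.0 and 85.5 ± 11.6 CPM in DHA, against 67.7 ± 0.913 and 53.1 ± 23.6 CPM in DMSO, and did not pass (adjusted p = 0.639 and 0.190 by edgeR). CDKN1A was at 80.3 CPM in DMSO 1 and at 39.7 and 39.2 CPM in the other DMSO libraries, and leaving out DMSO 1 gave 1.12 on the log2 scale with an adjusted p of 0.0247 in edgeR.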

How the data were processed

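RNA was sequenced from 3 DHA and 3 DMSO samples of CAL-27 cells. The table deposited by the authors gives raw counts, whole numbers per gene and library. The submitters' processing notes name fastp, HISAT2, HTSeq, R 3.2.0 and GRCh38. No source used here states their settings, the annotation release or the use of strand, so reads shared between near-identical copies, pseudogenes or readthrough neighbours may have been split or left out.

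Groups came from the sample titles. Genes were kept by filterByExpr of edgeR 4.0.16 (minimum count 10), scaled by TMM and tested with its quasi-likelihood F test with treatment as the factor, Benjamini-Hochberg over 14649 genes, threshold 0.05. The SE was derived as the absolute log2 fold change over the root of F. CPM values use the scaled totals, and log2 CPM a prior count of 2. Lengths and GC are medians over the protein-coding transcripts of the GENCODE 29 basic set, or over all transcripts of genes that have none there. They were known for 93.6% of the genes tested and all 82 members. The correction entered natural splines with 5 degrees of freedom in each as an offset.

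Named members were the 6 highest and 6 lowest fold changes at a mean of at least 10 CPM, the paralogs with their parents, and examples of each role group. Other lists gave up to 2 called genes and preset genes, of which 1 is not reported here. RPL36AL and RPL36A were picked with their values known. The members and lists were chosen with earlier results of these data known. No p is given over a list. Simulated data were used to test the edgeR script. Alternatives were other scalings, no filter, DESeq2 1.42.0, limma-voom (limma 3.58.1), a replicate block, the GC and length correction, and each library left out.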

Additional observations from a re-analysis of the deposited data

How the results depend on the processing

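The count of ribosomal protein genes called higher was 0 with DESeq2 size factors, upper-quartile scaling, unscaled totals, TMM factors without ribosomal protein genes, no filter, the DESeq2 Wald test, limma-voom, a replicate block and the GC content and length correction. With 1 library left out it ranged from 0 to 2 over all members and from 0 to 2 in the small subunit, and it was 0 in the large subunit. None was called lower in any of these fits. The median log2 fold change ranged from 0.15 to 0.30 over the other alternatives and from 0.08 to 0.47 with 1 library left out. The large minus small difference of -0.05 became -0.02 with the correction and lay between -0.04 and -0.03 with 1 library left out. With protein-coding rows as the denominator the shares in DMSO 1, DMSO 2 and DMSO 3 were 5.57%, 5.60% and 5.66%.

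Same-numbered samples did not deviate together in all pairs (correlations 0.258, 0.119 and -0.0397), against -0.26 to 0.117 for pairs with unlike numbers. The labels name no pairs, so the numbers were not taken as pairs, but these values do not settle whether the samples pair. With the replicate block the median was 0.26, the lowest adjusted p of a member was 0.0542, and 1272 genes were called over the whole table instead of 395. Of the genes named, the block changed 2 calls, CDKN1A and MYC, which passed under it in edgeR (adjusted p = 0.00670 and 0.0339, at 0.76 and 0.53 on the log2 scale) and not without it. The DESeq2 Wald test called 1135, the correction 997 and the fit without filter 649. Fits that left out a library called 16 (without DHA 1) to 789 (without DHA 3).

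With the correction the log2 fold changes of RPL7A and RPL23A were -0.06 and -0.00275. With 1 library left out RPL7A ranged from -0.06 to 0.30, RPL23A from -0.02 to 0.34, RPL23 from -0.04 to 0.34, RPL29 from -0.02 to 0.34, EEF2 from -0.00375 to 0.16 and MDM2 from -0.01 to 0.27. The cause was not tested. Among the other lists, calls for higher mitochondrial ribosomal protein genes went to 2 without a filter, by the DESeq2 Wald test and with the correction, and to 3 with the block. TOP and mTORC1 regulators had 2 higher and 1 lower without a filter, 3 and 2 by the DESeq2 Wald test, and 4 and 1 with the block and with the correction. The p53 targets had 1 higher under upper-quartile scaling and unscaled totals, 6 higher and 1 lower with the block, 4 and 1 with the correction, and 2 lower by the DESeq2 Wald test. Assembly factors, initiation factors and quality control genes had 0 higher under upper-quartile scaling and unscaled totals, the first 2 lists also by limma-voom. Assembly factors had 2 with the block, and initiation factors 2 with the block, the correction and the DESeq2 Wald test. With 1 library left out the higher calls ranged from 0 to 2 for the mitochondrial list, 1 to 3 for the regulators, 0 to 3 for the p53 targets, 0 to 1 for assembly and for initiation factors, and were 0 for quality control. All genes called in either direction, beside which these counts stand, were 395 of 14649 in the main fit. Of the same 14649, upper-quartile scaling called 381, unscaled totals 346 and limma-voom 365. The DESeq2 Wald test called 1135 of them and the block 1272. The correction called 997 of 13705 and the fit without a filter 649 of 22503. Fits with 1 library left out called from 16 of 14936 (without DHA 1) to 789 of 14951 (without DHA 3).

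Depth limits RPL36A, RPL3L and RPL10L, with 23 counts or fewer in every library.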
